A study of Homo sapiens with 12 samples.

Results

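Transcripts of 33 genes of nucleotide excision repair were followed, from damage recognition through unwinding, incision and ligation. They were taken by name, as the recognized components of these steps, and not by a rule on any measured value. Earlier results of these data were known when they were chosen. On the arrays 32 of them have a probe set that belongs to no other gene, and all 32 passed the filter on low signal and were among the 13784 genes tested. GTF2H2, a core subunit of the repair factor TFIIH, is covered only by probe sets that it shares with its near-identical copies, so it has no value here. The cells were SW13, a human adrenal cortical carcinoma line that lacks BRG1, the ATPase of the SWI/SNF chromatin remodeling complex encoded by SMARCA4. SW13+BRG1 cells carry pREP7 with BRG1 and SW13+vector cells carry empty pREP7, and each line was either irradiated with UV at 10 J/m2 or mock treated and collected 6 hours later. The 4 groups are therefore SW13+BRG1 UV, SW13+BRG1 mock, SW13+vector UV and SW13+vector mock, with 3 arrays each. Since there is 1 stable line of each kind, BRG1 and any other difference between these lines cannot be told apart.

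UV light joins neighboring pyrimidines, and nucleotide excision repair removes the distorted stretch of strand. In global genome repair, XPC with RAD23B and CETN2 finds the distortion, helped by the ubiquitin ligase of DDB1, DDB2, a CUL4 cullin and RBX1. In transcription-coupled repair, a stalled RNA polymerase is sensed by CSB and CSA, which are encoded by ERCC6 and ERCC8, together with UVSSA, USP7 and XAB2. Both routes load TFIIH, whose helicases XPB (ERCC3) and XPD (ERCC2) open the strands, followed by XPA and the single-strand binding protein RPA. The nucleases ERCC1-XPF (XPF is the product of ERCC4) and XPG (ERCC5) cut on either side, and a ligase seals the patch after repair synthesis. Inherited defects in several of these genes cause xeroderma pigmentosum, Cockayne syndrome or trichothiodystrophy.

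The values are array signals on a linear scale, for the brightest probe set of each gene, and levels of different genes were not set against each other because probe sets differ in affinity. The array medians lay between 21.1 and 25.3. SMARCA4 itself did not settle the line labels. Of its 7 tested probe sets, 212520_s_at was higher in SW13+BRG1 with UV (log2 fold change 2.20, adjusted p = 0.00284), 208793_x_at was lower both with UV and without it (-0.78 and -0.77, adjusted p = 0.0313 and 0.0373 by limma over all tested probe sets), and the brightest, 215714_s_at, was lower without UV (-1.28, adjusted p = 0.0459). Whether these probe sets cover the introduced copy is not known here. The study checked BRG1 protein by Western blot, which is not among the data used here. The lines are called as they were labelled, and directions between them rest on those labels. Other transcripts separated the lines widely. VIM averaged 10483 and 7952 in SW13+BRG1 UV and mock cells against 369 and 288 in SW13+vector UV and mock cells, and KRT18 averaged 4968 and 3755 against 212 and 188. Of 4 blood cell markers, 3 had a probe set, and their summed signal was 17.9 to 42.1 per SW13+BRG1 array and 87.5 to 166 per SW13+vector array. PTPRC alone carried that difference, with means of 6.77 and 7.07 in SW13+BRG1 UV and mock cells against 118 and 123 in SW13+vector UV and mock cells, while CD3E and CD14 did not pass the signal filter. The part of these differences in the repair results was not tested. Of 8 adrenal cortex markers, 7 had a probe set and their summed signal was 49.8 to 150 per array, with at most 3 at or above the array median. In every group the array numbered 3 had the lowest lower quartile of signal (5.21 to 5.41, against 6.44 to 6.91 on the others) and the lowest median over the 32 repair transcripts.

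The promoters of 4 genes are shown as examples. CETN2, RBX1 and CDK7 changed after UV in both lines, and ERCC4 passed the test after UV in SW13+BRG1. GTF2H5 and RPA3 also rose in both lines and are not shown. Each promoter shown is the 250 bases before the RefSeq start of the gene and the first 5 after it. It is given on the strand of the gene, from build GRCh38.p14, with the first start listed where the table holds several. Capitals mark matches, on either strand, to GGGCGG (bound by Sp1-type factors), CCGGAAG (ETS-type factors) or CCAAT (NF-Y), and matches of CCAAT on the opposite strand read ATTGG and can overlap the forward ones.
CETN2, chrX:152830753-152831007, minus strand: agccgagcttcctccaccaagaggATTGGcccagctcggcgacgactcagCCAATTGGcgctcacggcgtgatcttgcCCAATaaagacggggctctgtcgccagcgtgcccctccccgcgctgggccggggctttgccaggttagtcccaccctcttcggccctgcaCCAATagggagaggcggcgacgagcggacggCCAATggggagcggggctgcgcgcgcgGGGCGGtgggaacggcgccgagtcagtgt
RBX1, chr22:40951128-40951382, plus strand: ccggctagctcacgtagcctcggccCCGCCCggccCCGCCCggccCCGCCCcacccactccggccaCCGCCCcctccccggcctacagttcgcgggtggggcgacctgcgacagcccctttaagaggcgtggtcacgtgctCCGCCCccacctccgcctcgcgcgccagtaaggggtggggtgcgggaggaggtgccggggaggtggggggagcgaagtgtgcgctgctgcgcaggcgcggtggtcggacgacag
CDK7, chr5:69234636-69234890, plus strand: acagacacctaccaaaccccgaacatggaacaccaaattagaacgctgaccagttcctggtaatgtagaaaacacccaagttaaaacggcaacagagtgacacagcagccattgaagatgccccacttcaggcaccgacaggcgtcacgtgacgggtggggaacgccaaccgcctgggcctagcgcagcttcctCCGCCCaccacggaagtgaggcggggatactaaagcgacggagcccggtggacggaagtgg
ERCC4, chr16:13919904-13920158, plus strand: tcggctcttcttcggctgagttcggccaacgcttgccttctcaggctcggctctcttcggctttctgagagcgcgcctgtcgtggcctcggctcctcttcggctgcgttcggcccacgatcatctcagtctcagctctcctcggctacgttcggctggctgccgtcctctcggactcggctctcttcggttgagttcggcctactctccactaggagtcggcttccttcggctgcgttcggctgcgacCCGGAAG

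The CETN2 window holds 6 matches to CCAAT, a number reached by 37 of the 27305 promoters in the table (0.136%), besides 1 match to GGGCGG. RBX1 holds 5 matches to GGGCGG, as many or more of which occur in 5.22% of promoters, while CDK7 holds 1 and ERCC4 holds 1 match to CCGGAAG that spans its start. Among the 31 genes with an entry (none for RPA2 and RPA3), counted over the full 300 bases of the table, 23 hold GGGCGG (74.2%, against 44.6% of all promoters), 9 hold CCGGAAG (29.0% against 10.7%) and 11 hold CCAAT (35.5% against 35.7%). TATAAA and TGACGTCA were found in 0 of the 31, against 12% and 1.98% of all promoters, and the palindromic NRF1 site in 1 (3.23% against 1.36%), which was ERCC6. The median GC content was 62.3% in these promoters and 58.3% in all.

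The first question was whether the repair transcripts differed between the lines. Without UV, 8 of the 32 passed the test between SW13+BRG1 and SW13+vector (limma, adjusted p under 0.05 over all 13784 genes). CETN2 and CUL4B were higher in SW13+BRG1, 2 of 32 where 15.3% of all genes were higher. ERCC3, MNAT1, RPA1, RPA2, RPA3 and USP7 were lower, 6 of 32 (18.8%) where 13.2% of all genes were lower. None of the 8 reached a 2-fold difference, while 9.38% of all genes were higher and 5.27% lower by that rule. With UV, on separate arrays of the same lines, all 8 passed again in the same direction, although both tests share 1 estimate of the spread. Such likeness was general. The line differences with and without UV correlated with r = 0.79 over the 32 transcripts and 0.85 over all 13784 genes (Pearson). With UV, ERCC4, GTF2H4 and LIG3 were lower as well, which made 2 higher (16.4% of all genes) and 9 lower (28.1%, against 15.5% of all genes). CETN2 alone exceeded 2-fold among the higher (9.85% of all genes did), and none did among the lower (6.86% of all genes). The median log2 fold change of the 32 transcripts was -0.13 without UV and -0.30 with UV, where the medians of all genes were 0.00 and -0.02, and 21 of 32 lay below 0 each time. In RNA from whole cultures, fewer cells with a transcript and less of it per cell cannot be told apart. With the arrays set to a common median, 2 were higher and 4 lower with UV. Scaled to hybridization controls, CETN2 alone was higher and 12 were lower with UV, while the median of all genes moved to -0.16. The share of all genes called was not taken under either scaling, so nothing particular to the repair transcripts is drawn from these counts.

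The second question was how UV changed the repair transcripts within each line. In SW13+vector, CETN2, RBX1, GTF2H5 and RPA3 rose, 4 of 32 (12.5%, against 5.56% of all genes), and CDK7 fell, 1 of 32 (8.48% of all genes fell). Neither direction held a transcript over 2-fold, and among all genes 0.66% rose and 4.16% fell that far. In SW13+BRG1 the same 4 transcripts rose (8.03% of all genes), and CDK7, ERCC4 and GTF2H4 fell, 3 of 32 (9.38%, against 11.8% of all genes). CDK7 and ERCC4 fell over 2-fold, as 6.57% of all genes did, and none rose that far (0.609% of all genes). The medians of the 32 were 0.14 in SW13+vector and -0.05 in SW13+BRG1, against 0.03 in each line over all genes. Every value after UV is relative to the scaling of the array to a fixed mean. As an alternative, the arrays were scaled to the 18 probe sets of the hybridization controls added to each sample. The median of all genes then moved to -0.23 in SW13+vector and -0.36 in SW13+BRG1. None of the 4 transcripts that rose passed under that scaling (log2 fold change 0.13 to 0.35), although each stayed above 0. With quantile normalization only the rise of GTF2H5 in SW13+BRG1 passed. CDK7 in both lines and ERCC4 in SW13+BRG1 passed under each of these scalings.

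**Figure D1:**
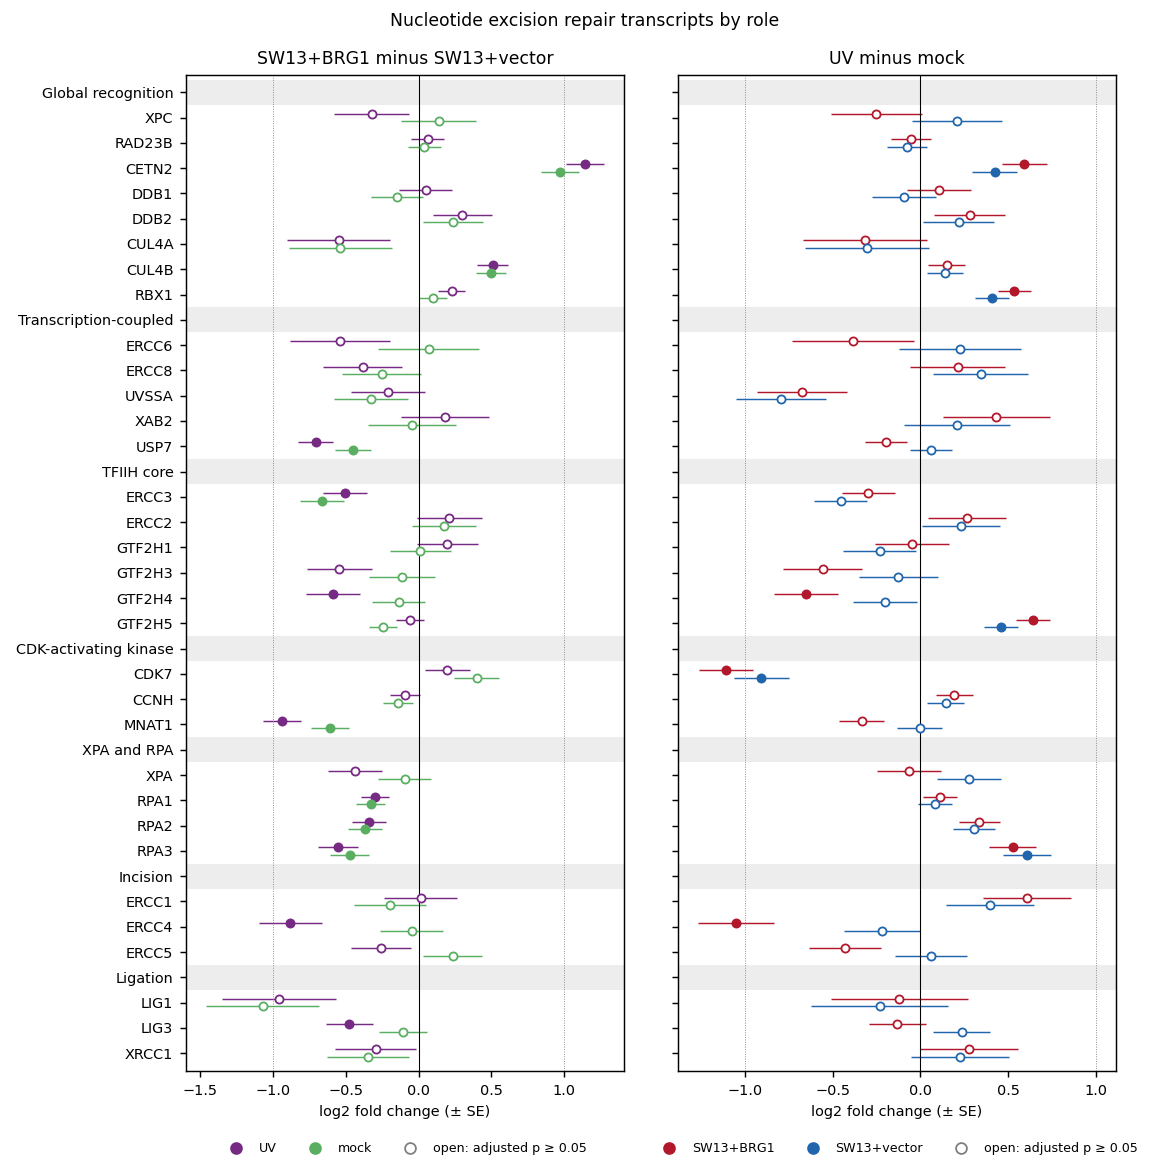
Log2 fold changes with SE of the 32 repair transcripts, grouped by role, for SW13+BRG1 minus SW13+vector (left; purple with UV, green mock) and for UV minus mock (right; red SW13+BRG1, blue SW13+vector). Filled points have an adjusted p under 0.05 and dotted lines mark a 2-fold change; CETN2 stands apart at the right of the line comparison, and CDK7 at the left of the UV comparison in both lines.

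Within the recognition complex, CETN2 (centrin 2, which stabilizes XPC) gave the clearest line difference. Its signals were 1721, 1714 and 1455 in SW13+BRG1 UV cells against 770, 716 and 724 in SW13+vector UV cells. Without UV they were 1159, 1195 and 905 in SW13+BRG1 against 593, 568 and 491 in SW13+vector. The lines did not overlap in either condition, and the difference was 2.21-fold with UV (log2 1.14 ± 0.13 SE, adjusted p = 1.97e-05) and 1.96-fold without it (0.97 ± 0.13, adjusted p = 8.82e-05). All UV signals also lay above all mock signals within each line, with a rise of 1.51-fold in SW13+BRG1 (adjusted p = 0.00603) and 1.34-fold in SW13+vector (adjusted p = 0.0464). The rise in SW13+vector was marginal: it no longer passed if 1 of 10 arrays was dropped (any but SW13+BRG1 mock 3 and SW13+BRG1 UV 3), with adjusted p between 0.0571 and 0.135.

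XPC, the damage sensor itself, did not pass any comparison. Its signals were 105, 119 and 179 in SW13+BRG1 UV cells, 155, 147 and 165 in SW13+BRG1 mock cells, 127, 184 and 185 in SW13+vector UV cells and 178, 101 and 157 in SW13+vector mock cells. These ranges overlap in every comparison. RAD23B, the partner that shields XPC from degradation, stayed between 1161 and 1598 on all 12 arrays, with log2 fold changes of -0.08 to 0.06.

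DDB2, the lesion-binding subunit of the UV-DDB ligase, gave 175, 178 and 209 in SW13+BRG1 UV cells and 149, 118 and 206 in SW13+BRG1 mock cells. In SW13+vector it gave 158, 143 and 155 with UV against 118, 140 and 135 without. The UV signals were above the mock signals in SW13+vector only, by a log2 fold change of 0.22 ± 0.20 SE that did not pass (adjusted p = 0.549), and in SW13+BRG1 the change was 0.28 (adjusted p = 0.402). DDB1, the adaptor of the ligase, passed no comparison either (log2 fold changes -0.15 to 0.11). Both scaffold cullins were measured and their line differences had opposite signs. CUL4B averaged 959 ± 54.7 in SW13+BRG1 UV against 675 ± 27.1 in SW13+vector UV cells, and 866 ± 63.9 in SW13+BRG1 mock against 612 ± 15.96 in SW13+vector mock cells (SD, n = 3 arrays each), a difference of 1.42-fold with UV and 1.41-fold without. CUL4A had log2 fold changes of -0.55 and -0.54 in the same comparisons (SE 0.35 each), neither of which passed on its brightest probe set. In each group its array numbered 3 differed from the mean of the others, by -0.698 to -1.24 log2 units. The fit did not use the array number, so this shared shift counts in the SE of CUL4A. RBX1, the RING subunit, rose after UV in both lines: it averaged 2044 ± 62.7 in UV against 1414 ± 131 in mock SW13+BRG1 cells (1.45-fold, adjusted p = 0.00175), and 1747 ± 41.6 in UV against 1318 ± 81.6 in mock SW13+vector cells (1.33-fold, adjusted p = 0.0130).

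**Figure D2:**
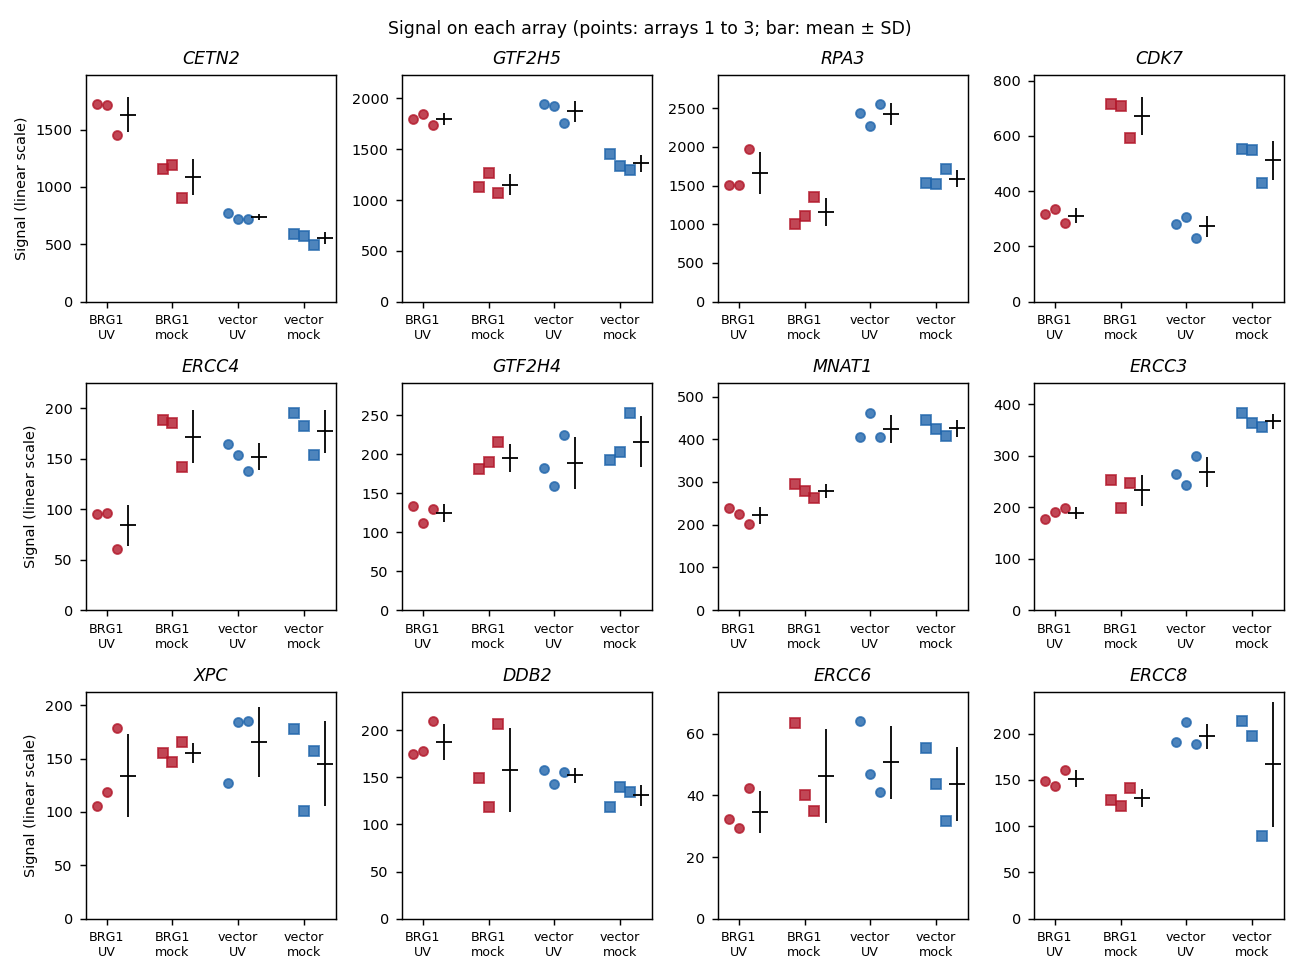
Signal of 12 repair transcripts on each of the 12 arrays, on a linear axis that starts at 0, with the group mean ± SD (n = 3) beside the points (red SW13+BRG1, blue SW13+vector, circles UV, squares mock). CETN2 separates all 4 groups, CDK7 separates UV from mock in both lines, and ERCC4 is low only in SW13+BRG1 UV cells.

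Of the transcription-coupled factors, only USP7 passed. This deubiquitinase, which protects CSB from degradation, averaged 622 ± 12.6 in SW13+BRG1 UV against 1021 ± 143 in SW13+vector UV cells and 714 ± 49.7 in SW13+BRG1 mock against 976 ± 75.4 in SW13+vector mock cells (SD, n = 3 arrays each). It was thus 1.63-fold lower with UV (adjusted p = 0.000535) and 1.37-fold lower without UV (adjusted p = 0.0124, or 0.0530 without SW13+BRG1 mock array 2). The CSB transcript ERCC6 was dim, at 32.3, 29.4 and 42.4 in SW13+BRG1 UV cells, 63.7, 40.3 and 34.8 in SW13+BRG1 mock cells, 64.1, 47.0 and 41.0 in SW13+vector UV cells and 55.5, 43.9 and 31.8 in SW13+vector mock cells. Its spread within groups was as wide as any difference between them, and no comparison passed.

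The CSA transcript ERCC8 gave 149, 143 and 161 in SW13+BRG1 UV cells, 129, 122 and 142 in SW13+BRG1 mock cells and 191, 213 and 188 in SW13+vector UV cells. In SW13+vector mock cells it gave 213, 198 and 88.9, so that array 3 stood far below the other arrays of its group. With all arrays no comparison of ERCC8 passed (line difference -0.38 with UV and -0.25 without, adjusted p = 0.321 and 0.552). Without SW13+vector mock array 3 the transcript was lower in SW13+BRG1 mock cells (-0.66, adjusted p = 0.00862). UVSSA recruits TFIIH to the stalled polymerase. On its brightest probe set all UV signals lay below all mock signals in both lines. The log2 fold changes of -0.67 in SW13+BRG1 and -0.79 in SW13+vector did not pass (adjusted p = 0.0854 and 0.0563). The other tested UVSSA probe set had the opposite sign, 0.09 in SW13+BRG1 and 0.40 in SW13+vector, and did not pass either. XAB2, an XPA-binding splicing factor, was at 37.8 to 90.7 on all arrays and passed nowhere.

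TFIIH subunits did not move as a block. ERCC3, the XPB translocase, was lower in SW13+BRG1: its signals were 177, 191 and 199 in SW13+BRG1 UV cells against 264, 243 and 300 in SW13+vector UV cells, and 253, 199 and 248 in SW13+BRG1 mock cells against 384, 363 and 355 in SW13+vector mock cells. The lines did not overlap in either condition, and the log2 fold changes were -0.51 ± 0.15 SE with UV (adjusted p = 0.0187) and -0.66 ± 0.15 without (adjusted p = 0.00419). The call with UV was lost without SW13+vector UV array 3 or SW13+BRG1 UV array 1 (adjusted p = 0.0721 and 0.0669). ERCC2, the XPD helicase, did not pass on its brightest probe set (0.21 and 0.17).

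GTF2H4 (p52, which anchors XPB) was low in SW13+BRG1 UV cells, at 133.2, 112 and 129, against 181, 190 and 216 in SW13+BRG1 mock cells. In SW13+vector it was at 182, 159 and 225 in UV cells and 193, 203 and 253 in mock cells, which overlap. The fall after UV was 1.57-fold in SW13+BRG1 (log2 -0.65 ± 0.18, adjusted p = 0.0228), and with UV the lines differed by -0.59 ± 0.18 (adjusted p = 0.0246). The fall no longer passed with SW13+BRG1 UV array 2 or SW13+BRG1 mock array 2 or 3 dropped (adjusted p = 0.0596 to 0.0833) and the line difference without SW13+vector UV array 1 or 3 or SW13+BRG1 UV array 2 (0.0539 to 0.0994). GTF2H5 (p8, the small subunit mutated in a form of trichothiodystrophy) went the other way. It gave 1800, 1849 and 1735 in SW13+BRG1 UV against 1125, 1263 and 1068 in SW13+BRG1 mock cells, and 1943, 1921 and 1755 in SW13+vector UV against 1454, 1336 and 1297 in SW13+vector mock cells. UV and mock signals did not overlap in either line, with rises of 1.56-fold (adjusted p = 0.000578) and 1.38-fold (adjusted p = 0.00762). GTF2H1 (p62) and GTF2H3 (p34) passed no comparison, although GTF2H3 had log2 fold changes of -0.54 between the lines with UV and -0.56 after UV in SW13+BRG1 (adjusted p = 0.0834 and 0.105).

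The 3 subunits of the CDK-activating kinase, the part of TFIIH that phosphorylates RNA polymerase II and cell-cycle kinases, passed in different comparisons or in none. CDK7, the kinase, gave 316, 335 and 284 in SW13+BRG1 UV against 715, 708 and 593 in SW13+BRG1 mock cells. In SW13+vector it gave 279, 308 and 232 in UV against 554, 550 and 430 in mock cells. UV signals lay below all mock signals in both lines, with a fall of 2.15-fold in SW13+BRG1 (log2 -1.11 ± 0.15, adjusted p = 0.000334) and 1.87-fold in SW13+vector (-0.90 ± 0.15, adjusted p = 0.00225). CCNH, its cyclin, changed little (log2 fold changes -0.14 to 0.19, none passing). MNAT1, the assembly factor MAT1, differed between lines: it gave 239, 226 and 201 in SW13+BRG1 UV cells against 405, 462 and 406 in SW13+vector UV cells, and 296, 278 and 263 in SW13+BRG1 mock cells against 445, 424 and 407 in SW13+vector mock cells. The lines did not overlap, and MNAT1 was 1.92-fold lower with UV (log2 -0.94 ± 0.13, adjusted p = 9.9e-05) and 1.52-fold lower without (-0.61 ± 0.13, adjusted p = 0.00305). These calls of CDK7 and MNAT1 held without each array in turn.

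XPA, the scaffold that verifies damage, passed no comparison; the nearest was a line difference of -0.44 with UV (adjusted p = 0.0868). All subunits of RPA were lower in SW13+BRG1 in both conditions. RPA3, the smallest, gave 1503, 1506 and 1978 in SW13+BRG1 UV cells against 2442, 2275 and 2554 in SW13+vector UV cells, and 1002, 1105 and 1357 in SW13+BRG1 mock cells against 1539, 1522 and 1715 in SW13+vector mock cells. These line differences were 1.47-fold and 1.39-fold (adjusted p = 0.00642 and 0.0178), the second of which was lost without SW13+vector mock array 3 or SW13+BRG1 mock array 1 or 2 (adjusted p = 0.0503 to 0.0870). After UV, RPA3 rose 1.44-fold in SW13+BRG1 and 1.52-fold in SW13+vector (adjusted p = 0.0148 and 0.00989), and the rise in SW13+BRG1 did not pass if SW13+BRG1 UV array 3 or SW13+BRG1 mock array 1 or 2 was dropped (0.0556 to 0.0760). The line differences of RPA1 and RPA2 were smaller, between 1.23-fold and 1.29-fold lower in SW13+BRG1, with no overlap between lines in either condition, and these calls were often lost without 1 array. RPA1 was lost with UV without any UV array but SW13+vector UV 3 (adjusted p = 0.0510 to 0.109) and without UV when array 1 or 2 of either mock group was left out (0.0559 to 0.0883). RPA2 was lost with UV without any of 9 arrays (all but the 2 mock arrays numbered 3 and SW13+BRG1 UV 3; 0.0534 to 0.140) and without UV without any mock array but SW13+BRG1 mock 3 (0.0564 to 0.107).

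Among the incision nucleases only ERCC4 passed a comparison. ERCC4, the catalytic subunit of ERCC1-XPF, gave 95.1, 96.0 and 60.9 in SW13+BRG1 UV cells against 189, 185 and 142 in SW13+BRG1 mock cells. In SW13+vector it gave 164, 153 and 138 in UV cells and 196, 182 and 154 in mock cells. The SW13+BRG1 UV signals lay below those of every other group, while the other 3 groups overlapped. The fall after UV was 2.07-fold in SW13+BRG1 (log2 -1.05 ± 0.22, adjusted p = 0.00406) and was -0.22 ± 0.22 in SW13+vector, which did not pass (adjusted p = 0.581). With UV the lines differed by -0.88 ± 0.22 (adjusted p = 0.00671). These 2 calls were kept without each array in turn. ERCC1, the partner of XPF, had a positive change after UV in both lines, 0.61 in SW13+BRG1 and 0.40 in SW13+vector, that did not pass (adjusted p = 0.113 and 0.346), and ERCC5, the XPG nuclease, had -0.43 and 0.06.

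Ligation is carried out by LIG1 or by LIG3 with its scaffold XRCC1. LIG3 averaged 128 ± 6.03 in SW13+BRG1 UV against 178 ± 9.003 in SW13+vector UV cells (SD, n = 3 arrays each), 1.39-fold lower (adjusted p = 0.0388). This call was lost without any of 8 arrays (all 6 UV arrays and array 1 of each mock group; adjusted p = 0.0510 to 0.107), and without UV the difference was -0.11. LIG1 had the most negative line differences of the 32, -0.96 with UV and -1.07 without, yet did not pass (adjusted p = 0.0785 and 0.0558). In each group its array numbered 3 stood above the mean of the others, by 0.42 to 1.2 log2 units. XRCC1 passed nowhere (-0.30 and -0.35 between lines).

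Whether the UV effect itself differed between the lines was tested as an interaction. None of the 32 passed (limma), where 0.029% of all genes had a more positive and 0.0653% a more negative UV effect in SW13+BRG1. Only ERCC4, 1 of 32, had an unadjusted p under 0.05, as did 755 of all 13784 genes. Its interaction was -0.83 ± 0.31 SE (limma, adjusted p = 0.682). ERCC4 and GTF2H4 passed after UV in SW13+BRG1 and not in SW13+vector, and these data therefore do not show that their response differed between the lines. The 2 UV comparisons share no arrays. Over the 32 transcripts their log2 fold changes had the same sign for 25 and correlated with r = 0.80 (Pearson; rho = 0.78), against r = 0.51 over all 13784 genes. This is a description over genes of the same arrays and scaling, and genes are not independent replicates. The share of like signs over all genes was not taken, and the part of signal level in the higher r was not tested.

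**Figure D3:**
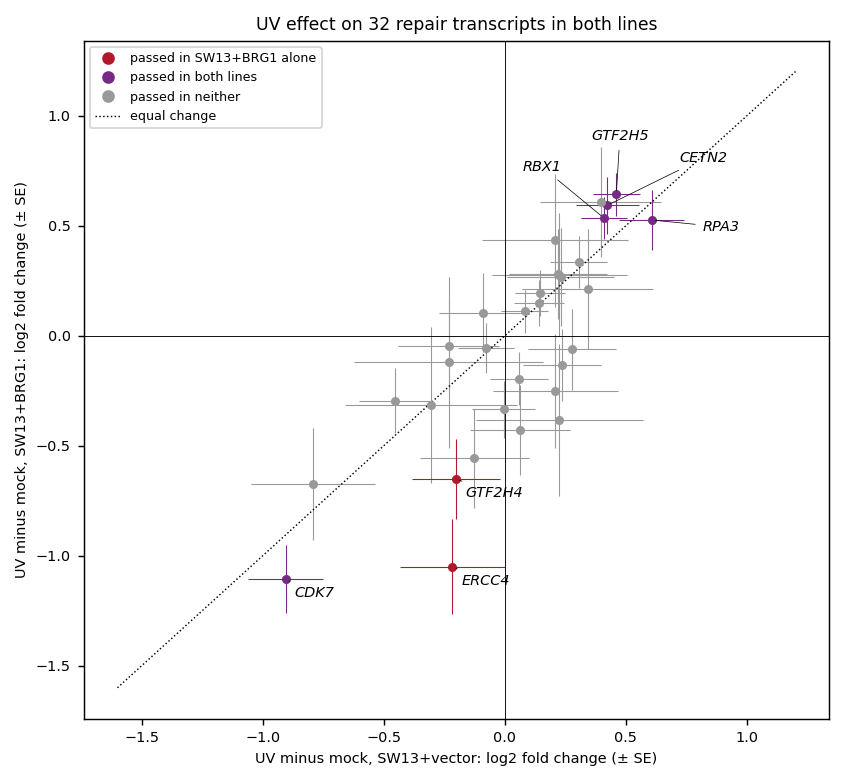
Log2 fold change after UV in SW13+BRG1 (vertical) against that in SW13+vector (horizontal) for the 32 repair transcripts, each with its SE in both directions and the line of equal change dotted. CETN2, RBX1, GTF2H5 and RPA3 lie at the upper right and CDK7 at the lower left (purple, passed in both lines), while ERCC4 and GTF2H4 (red) lie below the line of equal change.

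Genes with several probe sets did not always give 1 answer. When the probe sets of each gene were averaged before the fit, ERCC4 did not pass after UV in SW13+BRG1 or between the lines with UV (adjusted p = 0.369 and 0.319). Both line differences also did not pass for CUL4B (0.0973 with UV and 0.114 without), USP7 (0.151 and 0.149) and RPA1 (0.0825 and 0.587), nor did that of LIG3 with UV (0.0824). The rises after UV did not pass for GTF2H5 (0.530 in SW13+BRG1 and 0.187 in SW13+vector) or for CETN2 in SW13+vector (0.0536). For ERCC2, probe set 213468_at gave 178, 163 and 199 in SW13+BRG1 UV cells against 59.0, 69.5 and 79.0 in SW13+vector UV cells, and 132, 141 and 163 in SW13+BRG1 mock cells against 57.0, 71.7 and 54.9 in SW13+vector mock cells. On this probe set the lines did not overlap and ERCC2 was higher in SW13+BRG1 (log2 fold change 1.39 with UV and 1.25 without, adjusted p = 0.000246 and 0.000619 over all tested probe sets), whereas the slightly brighter 235399_at did not pass (0.21 and 0.17). For CUL4A, 201423_s_at was lower in SW13+BRG1 (-0.63 and -0.60, adjusted p = 0.0129 and 0.0193). For USP7, 201498_at was lower in SW13+BRG1 like the brightest (-0.63 in both conditions) and also fell after UV in both lines (-0.36 each, adjusted p = 0.0312 in SW13+BRG1 and 0.0409 in SW13+vector), which 201499_s_at did not (-0.20 and 0.06). The second ERCC4 probe set, at 29.7 to 56.7 in the group means, passed nowhere. Of the other 3 tested GTF2H5 probe sets, 244294_at was lower with UV in SW13+BRG1 than in SW13+vector (-1.37, adjusted p = 0.0262) and none passed after UV. All 5 LIG3 probe sets had a negative line difference with UV, from -0.52 to -0.22.

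**Figure D4:**
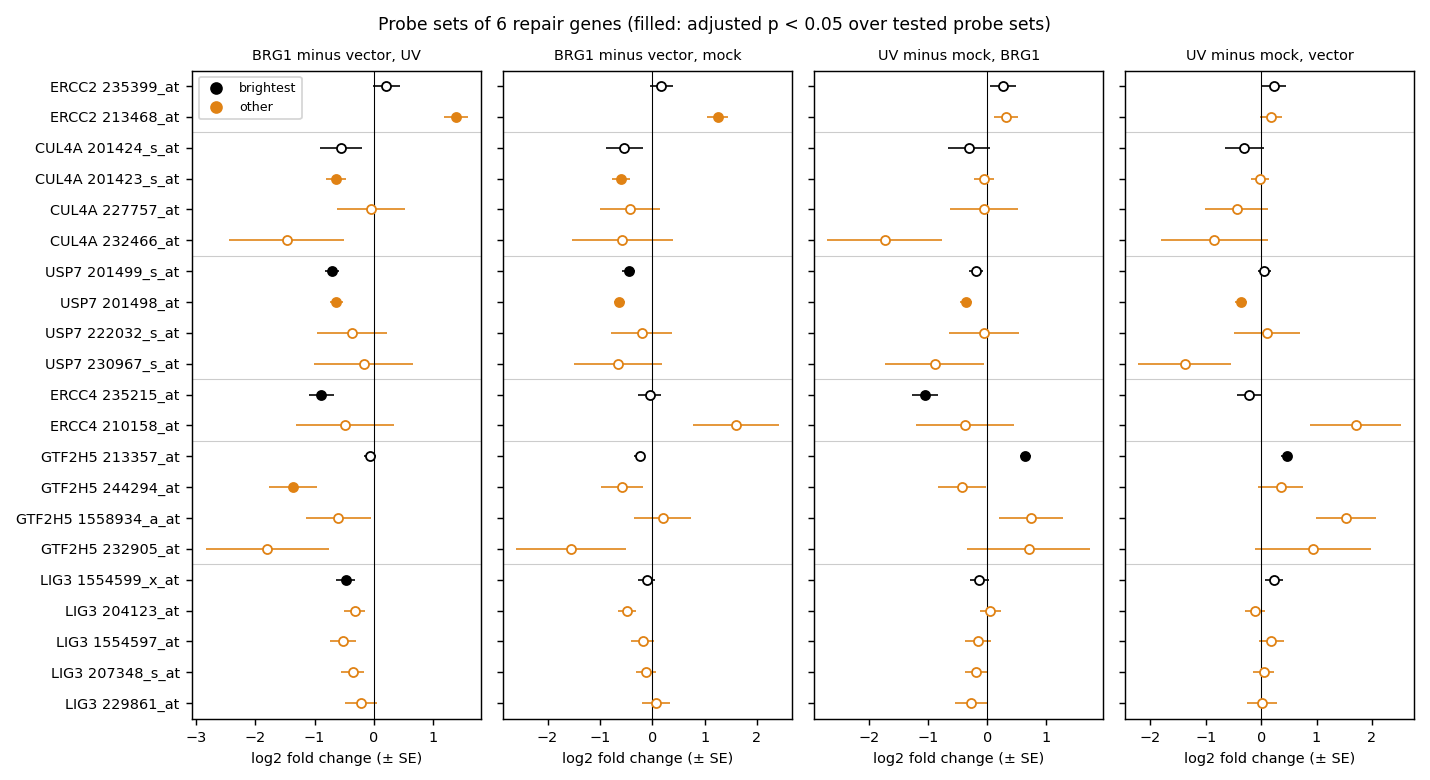
Log2 fold changes with SE for every tested probe set of ERCC2, CUL4A, USP7, ERCC4, GTF2H5 and LIG3 in the 4 comparisons; black marks the brightest probe set, which stands for the gene, orange the others, and filled points have an adjusted p under 0.05 over all tested probe sets. The dimmer ERCC2 probe set lies far to the right of the brightest in both line comparisons.

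Genes that act beside these factors were taken from 4 lists. Their counts stand beside the shares of all genes given above: 16.4% higher and 15.5% lower in SW13+BRG1 with UV, 15.3% and 13.2% without UV, 8.03% up and 11.8% down after UV in SW13+BRG1, and 5.56% and 8.48% in SW13+vector. Nothing particular to a list is drawn from counts this small. Of 15 repair synthesis genes, 3 were higher and 6 lower in SW13+BRG1 with UV, and 2 were higher and 5 lower without UV. The clamp loader subunit RFC4 averaged 1617 in SW13+BRG1 UV against 4574 in SW13+vector UV cells and 2264 in SW13+BRG1 mock against 4656 in SW13+vector mock cells (log2 fold changes -1.50 and -1.04). RFC3 and the polymerase epsilon subunit POLE2 were lower as well (-1.21 and -1.45 with UV, -1.13 and -1.23 without), while POLD4, the small subunit of polymerase delta, was higher (1.81 and 1.84). After UV, 3 rose and 3 fell in SW13+BRG1 and 1 rose and 1 fell in SW13+vector. Of 11 tested signalosome and neddylation genes, which control cullin ligases, 2 were higher and 1 lower with UV and 1 each without UV, and after UV 3 rose in SW13+BRG1 and 4 rose and 1 fell in SW13+vector. NEDD8, the modifier attached to cullins, rose in both lines (0.60 and 0.57). Of 10 tested accessory genes, 1 was higher and 3 lower in SW13+BRG1 with UV and 4 were lower without UV. PARP1, the sensor of strand breaks, was among the lower (-0.91 and -1.001), and the elongation factor TCEA1 was too (-0.79 and -0.78). RNF111, the ligase that modifies XPC, fell after UV in both lines (-1.08 in SW13+BRG1 and -1.14 in SW13+vector), and TCEA1 rose in both (0.26 and 0.27). Of 6 lesion bypass genes, MAD2L2 was lower in SW13+BRG1 (-0.72 and -0.78), and REV1 and REV3L fell after UV in both lines (-1.11 and -1.0005 in SW13+BRG1, -1.02 and -1.22 in SW13+vector).

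The 32 genes span 3.76 kb (CETN2) to 235 kb (MNAT1) in the RefSeq annotation. Across them the log10 of the span and the line difference without UV had r = -0.50 (rho = -0.46), where all 13768 genes with a span gave r = 0.08. The span and the UV change had r = -0.17 in SW13+BRG1 and -0.11 in SW13+vector, against -0.26 and -0.29 over all genes. These are descriptions over genes measured on the same arrays.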

How the data were processed

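The deposited values are signal intensities of 54675 probe sets on Affymetrix U133 Plus 2.0 arrays. The authors made them by MAS with its defaults and a target mean of 125, which each array meets as a mean trimmed by 2% at either end. No source used here names the MAS version. The platform annotation gives 1 gene to 41097 probe sets, several to 1801 and none to 11777. The data give no read depth, so the number of arrays limits the precision.

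Signals were taken to log2. Probe sets at or above the array median on at least 3 of 12 arrays (32622) were fitted with limma 3.58.1 (R 4.3.3), with a mean for each group and a prior variance that depends on signal level. The probe set with the highest mean stood for a gene, and p was adjusted (Benjamini-Hochberg) over 13784 genes. The fit was tested on simulated data with noise independent between arrays and changes of at least 2-fold. The simulation held no smaller changes and no deviations shared between arrays, so it does not bear on those. "Passed", "rose", "fell", "higher" and "lower" mean an adjusted p under 0.05. Signals are given per array for transcripts past 2-fold, the 3 widest calls of a comparison, ERCC4 for its interaction, and 4 damage sensors. ERCC2 was added after its values were seen.

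The genes and lists were chosen with earlier results of these data known. The study describes independent biological samples, but p-values measure only the spread within 1 line of each kind. The labels number the arrays of each group by experiment, and the fit did not use that number.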

Additional observations from a re-analysis of the deposited data

How the results depend on the processing

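The counts of repair transcripts that passed were 8 between the lines without UV, 11 with UV, 5 after UV in SW13+vector, 7 in SW13+BRG1 and 0 for the interaction, which stayed at 0 wherever it was run. Without 1 array at a time they lay between 4 and 10, 7 and 12, 4 and 6, 5 and 8, and 0 and 0. The count without UV dropped to 5 and 4 without SW13+BRG1 mock array 1 and 2, and that with UV to 7 without SW13+vector UV array 1 or 3 or SW13+BRG1 UV array 1. With quantile normalization 1 passed after UV in SW13+vector and 3 in SW13+BRG1. With a common median 6 passed between the lines with UV. With a variance prior that ignores the mean, 5 passed between the lines without UV and 1 after UV in SW13+vector. With the probe sets of each gene averaged, 7 passed between the lines with UV and 3 after UV in SW13+vector. A Welch test at an unadjusted p under 0.05 and a fold over 2 called 0, 1, 0 and 2 transcripts, and with Benjamini-Hochberg adjustment 1, 5, 0 and 1. The Welch tests and the fit on only the groups compared give no interaction.

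With the experiment number as a replicate block the counts were 12, 15, 8, 10 and 0. The deviations of same-numbered arrays from their group means correlated by 0.015 to 0.293, over 0.1 in 11 of 18 pairs, and 8 of 12 arrays were most like their own number. The 6 pairs of arrays numbered 3 had 0.179 to 0.293 and the other same-numbered pairs 0.015 to 0.141, so the likeness is mostly that of number 3. Arrays numbered 3 correlated negatively with the other numbers in other groups. That adds no support, because deviations from a group mean sum to 0. Pairing by number is a hint from the data. Without the 4 arrays numbered 3, an alternative chosen after the data were seen, 14, 16, 9 and 14 passed. Scaled to the hybridization controls, likewise chosen afterwards, 3 passed after UV in SW13+vector and 11 in SW13+BRG1, all lower. The median UV change of all genes was lower under that scaling too. The cause of these shifts was not tested. Apart from the fit without the arrays numbered 3, the share of all genes called was not taken for the alternatives in this section. Their counts show how far the calls depend on the processing, and nothing particular to the repair transcripts.

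Under the alternatives, signs were followed only for the calls, the ERCC4 interaction and the damage sensors XPC, DDB2, ERCC6 and ERCC8. Among these, sign changes affected only transcripts that did not pass. ERCC6 between the lines without UV had -0.053 with quantile normalization, -0.14 without SW13+vector mock array 3 and -0.187 without SW13+BRG1 mock array 1, and up to 0.259 without 1 array. ERCC8 there had 0.037 as the mean over its probe sets. XPC without SW13+vector mock array 2 had -0.104 between the lines without UV and -0.034 after UV in SW13+vector, and up to 0.303 and 0.386 without 1 other array. ERCC8 after UV in SW13+vector had -0.060 without SW13+vector mock array 3, up to 0.571 without 1 other array and -0.028 without the arrays numbered 3. Scaled to the hybridization controls, the UV change was -0.052 for XPC, -0.042 for DDB2 and -0.036 for ERCC6 in SW13+vector, and -0.11 for DDB2 and -0.18 for ERCC8 in SW13+BRG1. Each call that the report makes was tried under 26 alternatives, and over all calls and alternatives 173 cases were lost. The Welch test with a fold over 2 drops any call below 2-fold by its rule. The number of losses is therefore not a measure of stability. Of the 4 damage sensors XPC, DDB2, ERCC6 and ERCC8, ERCC8 alone gained a call, in 3 cases.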

Other observations

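The 4 arrays numbered 3 had the lowest lower quartile of signal of their groups. Without them, more of the repair transcripts passed in the line and UV comparisons. This fit held only the arrays numbered 1 and 2 of each group and was chosen after the data were seen. Between the lines without UV, CDK7 was then higher in SW13+BRG1, and DDB1, CUL4A, ERCC8, GTF2H5 and LIG1 were lower, besides the 8 named above. With UV, RAD23B and RBX1 were higher and CUL4A, ERCC8 and LIG1 lower in addition. After UV, ERCC1 and RPA2 rose and CUL4A fell in both lines, ERCC3 fell in SW13+vector, and DDB1 rose and ERCC5, GTF2H3 and MNAT1 fell in SW13+BRG1. LIG1 had a line difference of -1.22 with UV and -1.14 without UV in this fit, with adjusted p of 0.000274 and 0.000483 (limma). The SE of both was 0.187, against 0.389 with all arrays. These p-values therefore do not measure the spread over all arrays of the experiment. The share of all genes that passed grew as well: 21.7% were higher and 19.4% lower without UV, and 22.4% higher and 21.4% lower with UV. After UV, 16.6% rose and 16.5% fell in SW13+BRG1, and 14.7% rose and 14.0% fell in SW13+vector. The part of array quality in these calls was not tested. SW13+vector mock array 3 also had the widest gap between the ends of the ACTB transcript, a ratio of 2.57, where the other arrays lay between 1.21 and 1.62.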
